A study of Mus musculus with 6 samples.

Results

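Connexins are the subunits of gap junctions, the channels that join the cytoplasm of neighbouring cells, and 4 connexin genes of keratinocytes are described here: Gja1, Gjb2, Gjb5 and Gjb6. They were chosen by name, as probe sets annotated to each of these symbols alone, and each symbol had 1 such probe set, so 4 of the 19938 genes measured are members. RNA of keratinocytes, the cells that build the epidermis, was hybridised to 6 Affymetrix arrays, 2 for each of 3 genotypes. The cells came from the skin of female-labelled C57BL/6 mice at E18.5, were cultured for 2 to 5 days under a no-calcium label, and 2 mice were pooled on each array. Ovol1 and Ovol2 encode transcription factors of epithelia with zinc fingers, and the culture served to find primary changes after their loss.

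The Ovol1/2 DKO mice lacked Ovol1 (Ovol1-/-) and carried 1 deleted and 1 floxed Ovol2 allele together with K14-Cre (Ovol2flox/-), a recombinase driven by the keratin 14 promoter of basal keratinocytes. The mice labelled Ovol1 KO were Ovol1-/-. Control mice were of either of 2 kinds, Ovol2flox/+ with Ovol1+/- or Ovol2flox/+ with K14-Cre, so each kind had a floxed Ovol2 allele and some also had 1 Ovol1 allele missing. The kind with K14-Cre may also have lost its floxed Ovol2 allele, which was not checked here. Which kind lay on which Control array is not stated in the sources used here. Arrays of 1 genotype carry the word biological in their replicate labels, and having only 2 per genotype limits the precision.

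Values are log2(intensity + 16) throughout unless an intensity is named, and a level at or under 6.20, the highest median of unnamed probe sets on an array, is called near background. The label check was Ovol1, which read 5.96 and 6.22 in Ovol1/2 DKO, 10.75 and 9.80 in the labelled Ovol1 KO arrays, and 9.64 and 9.95 in Control. The labelled Ovol1 KO arrays thus held Ovol1 signal at the Control level, against their label, and any direction drawn from them rests on that label. Ovol2 read 7.63 and 7.50 in Ovol1/2 DKO, 7.88 and 8.38 in the labelled Ovol1 KO arrays, and 8.37 and 6.97 in Control. Which exons either probe set covers is unknown here, so the Ovol2 signal checks nothing. The Ovol1 signal did fall in the Ovol1/2 DKO arrays, which are Ovol1-/- (-3.70 against Control). Xist, which coats the silenced X chromosome, had no signal above background in replicate 1 labelled Ovol1 KO (4.54) and Control replicate 1 (4.43) and read 10.99 to 11.43 on the other 4 arrays, although all 6 samples carry a female label. Keratinocyte identity was clear on every array, with Krt5 at 13.39 to 13.55 and Krt14 at 13.21 to 13.39. The fitted model was limma over all 6 arrays, and an adjusted p under 0.05 passed.

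Gap junctions form when connexins assemble into a hemichannel in the membrane and the hemichannels of adjoining cells dock. Ions, second messengers such as calcium and small metabolites pass through them. In the epidermis, Gja1 encodes Cx43, the most widely expressed connexin of skin, which is found in basal and spinous cells and also in dermal fibroblasts. Gjb2 and Gjb6 encode Cx26 and Cx30, low in resting interfollicular epidermis and raised in wounded or hyperproliferative skin, and human mutations in either cause deafness or disorders of cornification. Gjb5 encodes Cx31.1, a connexin of stratified epithelia.

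The promoters of Gjb2 and Gjb6 are shown because these genes neighbour each other on mouse chromosome 14. Their profiles over the 6 arrays were also nearer to each other than to those of Gja1 or Gjb5. Each window is the stretch of 250 bases before the RefSeq gene start (GRCm38.p6, minus strand, 5′ to 3′), at chr14:57104703-57104952 for Gjb2 and chr14:57133612-57133861 for Gjb6. Capitals mark matches to 4 motifs searched on both strands, namely CCGTTA (a core bound by Ovol1), CAGGTG (the E-box bound by Zeb and Snail repressors), TGANTCA (AP-1) and GGGCGG (the GC box of Sp and Klf factors).
Gjb2: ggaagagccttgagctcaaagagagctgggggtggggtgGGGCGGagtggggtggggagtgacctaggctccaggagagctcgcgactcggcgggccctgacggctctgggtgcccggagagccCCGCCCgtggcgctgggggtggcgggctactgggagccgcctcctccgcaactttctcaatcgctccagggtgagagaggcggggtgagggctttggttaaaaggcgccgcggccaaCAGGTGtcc
Gjb6: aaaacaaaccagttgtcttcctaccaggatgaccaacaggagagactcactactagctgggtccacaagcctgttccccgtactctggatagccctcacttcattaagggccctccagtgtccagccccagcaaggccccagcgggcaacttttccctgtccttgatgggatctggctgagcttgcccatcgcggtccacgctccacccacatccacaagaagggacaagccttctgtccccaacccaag
The Gjb2 window held 1 CAGGTG, 9 to 4 bases before the start, and 2 GC boxes, at 211 to 206 and, on the opposite strand, at 126 to 121 bases before it. No motif of the 4 was found in the Gjb6 window. Of the other connexins, Gja1 held 1 AP-1 match 19 to 13 bases before its start and Gjb5 held none of the 4. The matches do not overlap each other. Among 32851 RefSeq windows of the same length, 2.18% held CCGTTA, 17.2% CAGGTG, 6.75% TGANTCA and 32.7% GGGCGG. The GC content was 69.2% for Gjb2, 56.8% for Gjb6, 50% for Gja1 and 54.4% for Gjb5. A match is a description of letters, not of binding.

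None of the 4 connexins passed the test in any of the 3 comparisons. Between Ovol1/2 DKO and Control 2.02% of all genes passed (403 of 19938, 0.622% higher and 1.40% lower). Between Ovol1/2 DKO and labelled Ovol1 KO 3.15% passed (628, 1.24% higher and 1.91% lower), and between labelled Ovol1 KO and Control 0.00% passed, with 153 genes at an unadjusted p under 0.05. With shares this low, 0 of 4 is near the background. Groups did not overlap for 3 of the 4 between Ovol1/2 DKO and Control (39.2% of all genes in either direction), 3 between Ovol1/2 DKO and labelled Ovol1 KO (43.1%) and 0 between labelled Ovol1 KO and Control (19.1%). These counts depended on single arrays: leaving out Control replicate 2 gave 152 in place of 403, and leaving out Ovol1/2 DKO replicate 1 or 2 gave 109 or 99. In place of 628, the count was 135 without replicate 1 labelled Ovol1 KO and 182 or 154 without Ovol1/2 DKO replicate 1 or 2, and in place of 0 it was 3 without replicate 2 labelled Ovol1 KO. The 4 genes were of 2 kinds by their spread: Gja1 and Gjb5 stayed within a range of 0.76 and 0.71 over the 6 arrays, while Gjb2 and Gjb6 spanned 3.15 and 3.83. Of all genes, 59.2% and 54.1% had a smaller range than Gja1 and Gjb5, and 97.7% and 98.6% a smaller range than Gjb2 and Gjb6.

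**Figure D1:**
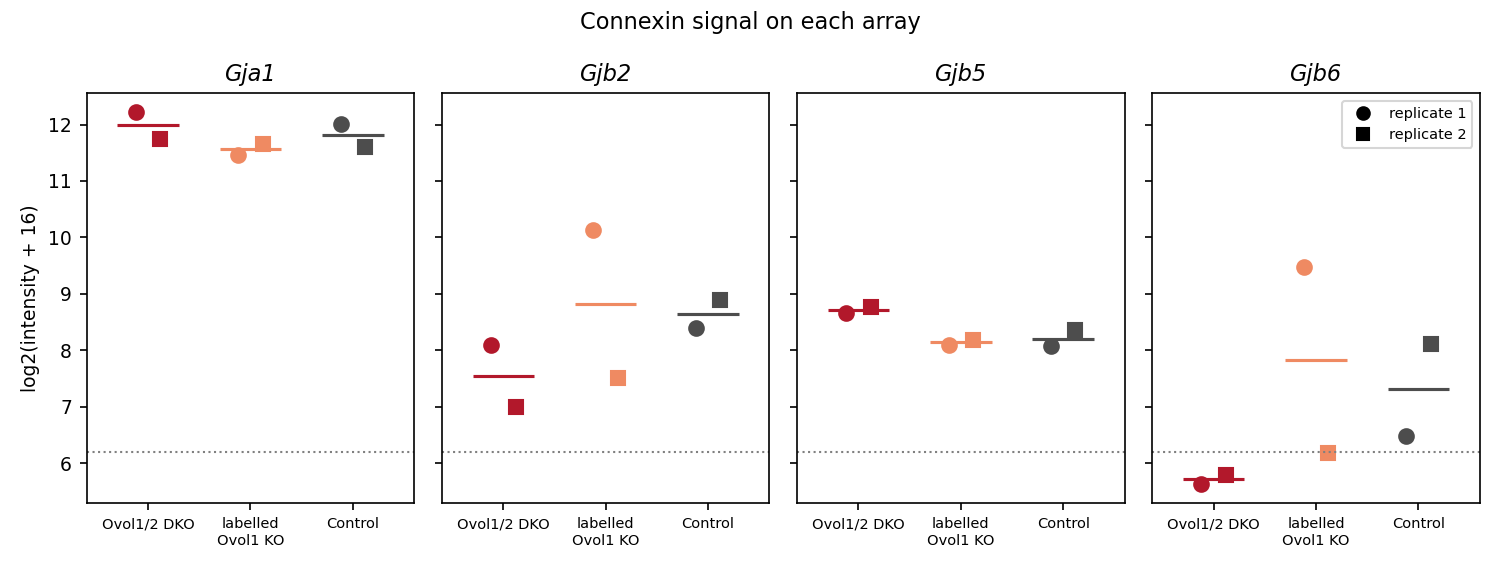
Level of each connexin on every array, as log2(intensity + 16), with circles for replicate 1, squares for replicate 2, a bar at each group mean and a dotted line at the near-background level of 6.20. Gja1 and Gjb5 lie in narrower bands than Gjb2 and Gjb6, which peak at 10.13 and 9.47 in replicate 1 labelled Ovol1 KO, and both Ovol1/2 DKO arrays lie under the dotted line for Gjb6. Heights of different genes come from different probes and are not comparable.

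Gja1, the gene of Cx43, was bright on every array. It read 12.22 and 11.75 in Ovol1/2 DKO (intensity 4762 and 3432), 11.46 and 11.66 in the labelled Ovol1 KO arrays (2803 and 3209), and 12.01 and 11.60 in Control (4119 and 3089). The Ovol1/2 DKO arrays were the highest by mean and the labelled Ovol1 KO arrays the lowest, but Ovol1/2 DKO and Control overlapped. Relative to Control, Ovol1/2 DKO differed by 0.18 (SE 0.26, 95% interval -0.43 to 0.79, n = 2 per group, limma adjusted p = 1), so a fall beyond 0.43 or a rise beyond 0.79 on the log2 scale lies outside the interval. Without Control replicate 2 the difference was -0.03, and without Ovol1/2 DKO replicate 1 it was -0.06. Ovol1/2 DKO minus labelled Ovol1 KO was 0.43 (SE 0.26, -0.18 to 1.04, limma adjusted p = 0.545), both Ovol1/2 DKO arrays being above both others. The remaining difference, labelled Ovol1 KO minus Control, was -0.25 (SE 0.26, -0.86 to 0.36, limma adjusted p = 0.999).

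Fibroblasts and melanocytes also express Gja1, so their markers were read on the same arrays. The summed intensity of 10 fibroblast markers was 4041 and 4839 in Ovol1/2 DKO, 2566 and 2898 in the labelled Ovol1 KO arrays, and 2469 and 2824 in Control. In Ovol1/2 DKO most of that sum was Fbln1 and Thy1 (3066 and 3454), against 1650 and 1366 in the labelled Ovol1 KO arrays and 1686 and 1310 in Control. The other 8 markers summed to 976 and 1385 in Ovol1/2 DKO, 916 and 1532 in the labelled Ovol1 KO arrays, and 784 and 1514 in Control, with the groups overlapping. Fbln1, a matrix glycoprotein, read 11.17 and 11.38 in Ovol1/2 DKO, 10.55 and 10.17 in the labelled Ovol1 KO arrays, and 10.52 and 10.09 in Control (Ovol1/2 DKO minus Control 0.97, SE 0.25, limma adjusted p = 0.150). Among the 10, Lum was near background on all 6 arrays, Thy1 rose between Ovol1/2 DKO and Control (log2 difference 1.67, SE 0.22, limma adjusted p = 0.0187), and 9 did not pass. The collagen gene Col1a1 read 8.07 and 8.50 in Ovol1/2 DKO, 7.68 and 8.44 in the labelled Ovol1 KO arrays, and 7.48 and 8.25 in Control. Dcn, a matrix proteoglycan, read 7.35 and 8.30 in Ovol1/2 DKO, 7.42 and 8.04 in the labelled Ovol1 KO arrays, and 7.25 and 8.40 in Control. The sum of 8 melanocyte markers was 804 and 662 in Ovol1/2 DKO, 1130 and 865 in the labelled Ovol1 KO arrays, and 1210 and 1362 in Control. None of the 8 passed with all arrays in the fit, and Tyr was near background on all arrays. Dct, an enzyme of melanin synthesis, read 6.96 and 5.99 in Ovol1/2 DKO, 7.46 and 5.39 in the labelled Ovol1 KO arrays, and 8.01 and 7.86 in Control. Lum, Fbln1, Thy1, Tyr, Kdr and Lyz2 are named after their values were seen. The part of such cells in the Gja1 signal was not tested, and in bulk RNA fewer cells of a type and less RNA per cell cannot be told apart. Of the other marker lists, none of 6 leukocyte, 5 endothelial and 5 skeletal muscle markers passed between Ovol1/2 DKO and Control with all arrays in the fit, and 1 of 4 Schwann and Merkel cell markers fell (Krt8, -1.79, limma adjusted p = 0.0316), a keratin that simple epithelia also make. Neither the Thy1 nor the Krt8 call held in every fit with 1 array left out. The leukocyte gene Ptprc read 5.84 to 6.29 over the 6 arrays, and the endothelial gene Pecam1 read 7.52 and 7.39 in Ovol1/2 DKO, 6.15 and 6.20 in the labelled Ovol1 KO arrays, and 6.57 and 6.65 in Control. Pecam1 passed against labelled Ovol1 KO (1.28, limma adjusted p = 0.0204), a call that did not hold in every fit with 1 array left out, and not against Control (0.84, SE 0.19). Kdr, another endothelial gene, was lower in Ovol1/2 DKO than in Control without passing (-1.15, SE 0.22, limma adjusted p = 0.0599). The leukocyte gene Lyz2 read 4.77 and 5.52 in Ovol1/2 DKO, 4.80 and 5.24 in the labelled Ovol1 KO arrays, and 4.80 and 8.18 in Control. Only Control replicate 2 was above background, and with it as the only Control array the Ovol1/2 DKO minus Control difference was -3.03.

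Gjb5 had close values within each group, and it was the only one of the 4 with both Ovol1/2 DKO arrays above all other arrays. It read 8.66 and 8.77 in Ovol1/2 DKO (intensity 388.6 and 421.3), 8.10 and 8.18 in the labelled Ovol1 KO arrays (258.4 and 274.4), and 8.07 and 8.36 in Control (252.0 and 311.6). Arrays of a group differed by 0.11 in Ovol1/2 DKO, 0.08 in the labelled Ovol1 KO arrays and 0.29 in Control. The Ovol1/2 DKO minus Control difference was 0.51 (SE 0.20, 95% interval 0.02 to 0.99, a 1.42-fold higher level), with an unadjusted p of 0.0430 that did not pass after adjustment over all genes (limma adjusted p = 0.443). Against the labelled Ovol1 KO arrays the difference was 0.58 (SE 0.20, 0.09 to 1.06, limma adjusted p = 0.254). Labelled Ovol1 KO minus Control was -0.07 (SE 0.20, -0.55 to 0.41, limma adjusted p = 0.999), and 0.07 without Control replicate 2.

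Gjb2, the gene of Cx26, varied widely within groups, and its 2 labelled Ovol1 KO arrays were farther apart than any pair of group means. It read 8.10 and 6.99 in Ovol1/2 DKO (intensity 259.3 and 110.8), 10.13 and 7.51 in the labelled Ovol1 KO arrays (1107 and 166.1), and 8.39 and 8.90 in Control (318.6 and 461.1). Both Ovol1/2 DKO arrays lay under both Control arrays, while replicate 1 labelled Ovol1 KO lay above all other arrays and replicate 2 between the Ovol1/2 DKO arrays. The labelled Ovol1 KO arrays were 2.62 apart and the Ovol1/2 DKO arrays 1.12 apart, against 0.51 in Control. From all arrays, the Ovol1/2 DKO minus Control difference was -1.10 (SE 0.81, 95% interval -3.04 to 0.85, limma adjusted p = 0.909), and from those 2 groups alone, without the labelled Ovol1 KO arrays, it was -1.10 (SE 0.41, limma adjusted p = 0.379). Ovol1/2 DKO minus labelled Ovol1 KO was -1.28 (SE 0.81, -3.22 to 0.67, limma adjusted p = 0.575), and 0.04 without replicate 1 labelled Ovol1 KO. Labelled Ovol1 KO minus Control was 0.18 (SE 0.81, -1.76 to 2.12, limma adjusted p = 0.999), and turned to -1.13 without replicate 1 labelled Ovol1 KO and to -0.08 without Control replicate 1.

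Gjb6, the gene of Cx30, had the widest range of the 4 and was near background in both Ovol1/2 DKO arrays, without passing the test. It read 5.63 and 5.80 in Ovol1/2 DKO (intensity 33.7 and 39.7), 9.47 and 6.19 in the labelled Ovol1 KO arrays (692.8 and 57.1), and 6.49 and 8.12 in Control (74.1 and 263.0). Both Ovol1/2 DKO arrays and replicate 2 labelled Ovol1 KO were near background, and the Ovol1/2 DKO arrays lay under all 4 others. Compared with Control, Ovol1/2 DKO differed by -1.59 (SE 1.02, 95% interval -4.02 to 0.84, limma adjusted p = 0.822), and in the fit of those 2 groups alone -1.59 (SE 0.53, limma adjusted p = 0.300). Since both Ovol1/2 DKO arrays were near background, the size depended on the offset added before the log, at -1.91 with an offset of 1 and -1.08 with 64. With those arrays held at 6.20, the group mean was 2.16-fold lower than in Control and 3.1-fold lower than in the labelled Ovol1 KO arrays, neither comparison passing. These figures bound the observed difference of means only, and the intervals of both differences include no change. The 3.1-fold figure rests on replicate 1 labelled Ovol1 KO, as replicate 2 (6.19) was itself near background. Ovol1/2 DKO minus labelled Ovol1 KO was -2.11 (SE 1.02, -4.55 to 0.32, limma adjusted p = 0.435), and -0.48 without replicate 1 labelled Ovol1 KO. Labelled Ovol1 KO minus Control was 0.52 (SE 1.02, -1.91 to 2.95, limma adjusted p = 0.999), and turned to -1.12 without replicate 1 labelled Ovol1 KO and to -0.29 without Control replicate 1.

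The arrays without Xist signal were left out together as well. The Ovol1/2 DKO minus Control difference was then -2.41 for Gjb6 (SE 0.26, limma adjusted p = 0.00113), which passed, -1.35 for Gjb2 (SE 0.43, limma adjusted p = 0.130), 0.39 for Gja1 and 0.36 for Gjb5. In that fit Control and labelled Ovol1 KO had 1 array each, assumed to vary like the Ovol1/2 DKO pair, which differed by 0.17 for Gjb6 against 1.63 between the Control arrays and 3.28 between the labelled Ovol1 KO arrays. The fit called 1395 genes in that comparison, among them 9 of 16 spinous and granular genes, 8 of 11 wound genes, 4 of 15 adhesion genes and 1 connexin partner (Tjp1) lower, and 3 of 14 basal genes higher. Against the remaining array labelled Ovol1 KO the differences were -0.48 for Gjb6, 0.04 for Gjb2, 0.33 for Gja1 and 0.54 for Gjb5, none passing.

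**Figure D2:**
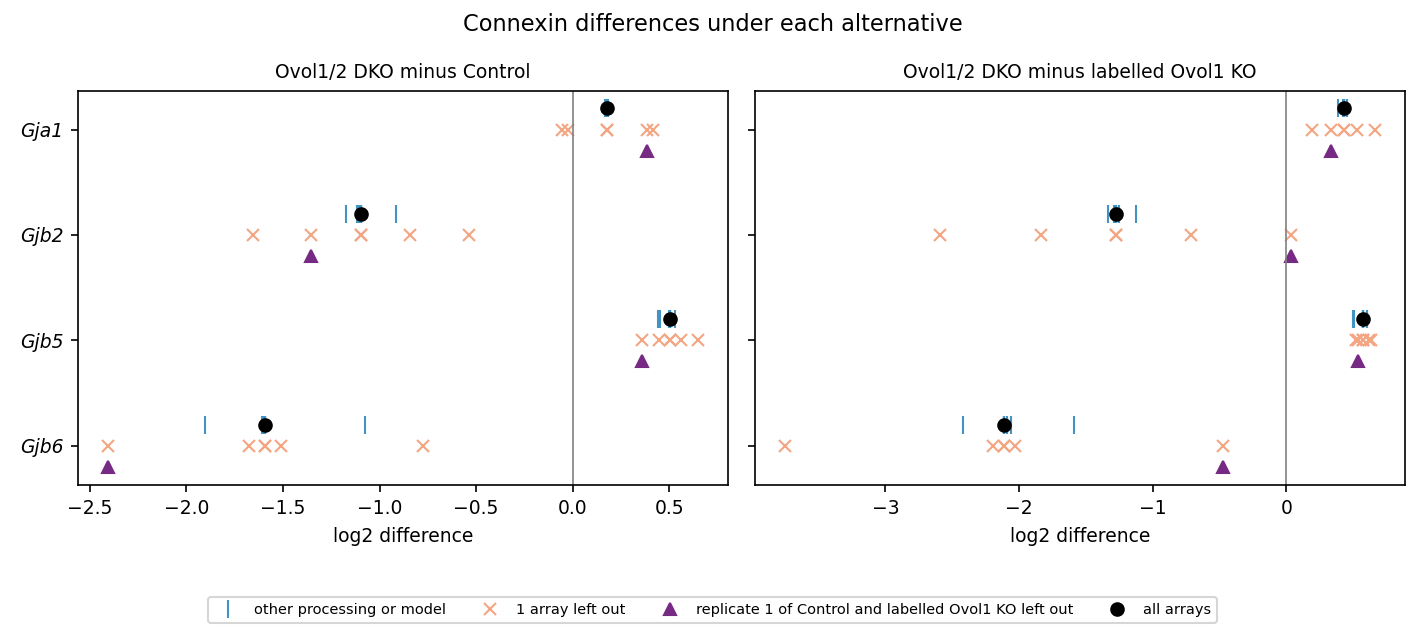
Log2 difference of each connexin for Ovol1/2 DKO minus Control (left) and Ovol1/2 DKO minus labelled Ovol1 KO (right), with dots for all arrays, ticks for other processing or models, crosses for fits with 1 array left out and triangles for the fit without the arrays that lacked Xist signal. Gjb5 stays between 0.36 and 0.65 against Control, while Gjb6 runs from -2.41 to -0.78 and, against labelled Ovol1 KO, from -3.75 to -0.48.

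Gjb2 and Gjb6 had the same highest array. By the root mean square difference of profiles centred on their own mean over the 6 arrays, Gjb2 and Gjb6 were 0.63 apart (1.01 and 1.39 from a profile with no change), whereas Gja1 was 1.14 from Gjb2 and 1.59 from Gjb6. Many other genes were nearer to each. Gjb6 ranked 86 by distance from Gjb2, with Gjb2 itself counted, and Gjb2 ranked 18 from Gjb6. The 3 nearest of 9601 candidate genes to Gjb6 were Krt78, a keratin gene (0.33), Rdh12, a retinol dehydrogenase (0.43), and Rasgrp1, a Ras activator (0.44). Krt78 read 6.90 and 7.36 in Ovol1/2 DKO, 11.70 and 7.70 in the labelled Ovol1 KO arrays, and 7.85 and 9.99 in Control. Nearest to Gjb2 were Otub2, a deubiquitinase (0.29), Exph5, a Rab27 effector (0.31), and Ugcg, the enzyme that makes glucosylceramide (0.41). Otub2 read 8.33 and 8.13 in Ovol1/2 DKO, 10.96 and 8.50 in the labelled Ovol1 KO arrays, and 9.05 and 9.52 in Control. Each of these 6 genes had its highest value in replicate 1 labelled Ovol1 KO, which their choice by profile over these same arrays fixes. The profile of Gja1 was nearest to Qk (0.041), U2af1 (0.042) and Foxk2 (0.043), and that of Gjb5 to Tspan9 (0.057), Prkca (0.062) and Gna12 (0.064). Gja1 and Gjb5 are flat only beside Gjb2 and Gjb6. For them a small distance says little, since they are only 0.26 and 0.27 from a profile with no change.

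Genes of differentiating keratinocytes varied over the same arrays. The mean level of 16 spinous and granular layer genes (of 17 listed) was 7.35 and 7.89 in Ovol1/2 DKO, 11.01 and 9.67 in the labelled Ovol1 KO arrays, and 9.67 and 10.27 in Control. It was highest in replicate 1 labelled Ovol1 KO and lowest in Ovol1/2 DKO, as for Gjb6. Within the labelled Ovol1 KO pair replicate 1 was the higher, and within the Control pair replicate 2, for this mean as for Gjb2 and Gjb6. Not every gene of the list followed the mean. Krt1 read 9.03 and 9.20 in the labelled Ovol1 KO arrays and 8.84 and 8.81 in Control. The keratins Krt1 and Krt10, named after their values were seen, differed by -0.28 and -0.23 in Ovol1/2 DKO minus Control, without passing. Of these 16 genes 4 fell between Ovol1/2 DKO and Control and 12 did not pass (list median -2.21, against 0.03 over all genes, of which 1.40% fell), and from 3 to 7 fell when 1 array was left out. Tgm1, the transglutaminase of the cornified envelope (-5.00, SE 0.41, limma adjusted p = 0.00552), and Abca12, which loads lipids into lamellar granules (-4.53, SE 0.35, limma adjusted p = 0.00476) fell in each of those fits too. The envelope protein Evpl (-2.25, SE 0.20) lost its call without Ovol1/2 DKO replicate 2, and Dmkn, a secreted epidermal protein (-2.88, SE 0.49), lost it without any 1 of the Ovol1/2 DKO or Control arrays.

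Genes of wounded and hyperproliferative keratinocytes, states in which Cx26 and Cx30 are known to be raised, were read beside them, 11 being measured of 12. Their mean was 8.16 and 8.55 in Ovol1/2 DKO, 11.71 and 10.93 in the labelled Ovol1 KO arrays, and 10.63 and 11.75 in Control. Of the 11, 4 fell between Ovol1/2 DKO and Control and 7 did not pass (median -2.92, with 1.40% of all genes falling), and from 1 to 5 fell when 1 array was left out. The cytokine Il1f6 fell in each of those fits (-5.59, SE 0.48, limma adjusted p = 0.00652). Sprr1b, a cornified envelope precursor (-5.33, SE 0.83), and the keratins Krt6b (-3.82, SE 0.64) and Krt16 (-3.63, SE 0.55) each lost the call without Control replicate 2. Without replicate 1 or replicate 2 labelled Ovol1 KO the calls of Sprr1b and Krt6b were also lost, as were those of Krt6b and Krt16 without either Ovol1/2 DKO array and that of Krt16 without Control replicate 1. None of 14 measured basal layer genes of 15 passed (median 0.31), the lowest p values being those of Trp63, the master regulator of stratified epithelia (0.93, SE 0.21, limma adjusted p = 0.102), and Dst, a hemidesmosome plakin (0.88, SE 0.22, limma adjusted p = 0.140). Between Ovol1/2 DKO and labelled Ovol1 KO, which uses the same Ovol1/2 DKO arrays, 7 of the 16 spinous and granular genes, 5 of the 11 wound genes and 0 of the basal genes fell (from 3 to 8 and from 2 to 6 of the spinous and granular and the wound genes when 1 array was left out), and Trp63 (limma adjusted p = 0.0465) and Dst (difference 1.34, limma adjusted p = 0.0267) rose. Over all genes, 1.91% fell and 1.24% rose in that comparison. Trp63 lost its call there in every fit with 1 array left out, and Dst in those that left out an array of either group. No gene of these lists passed between labelled Ovol1 KO and Control. The part of the differentiation state in the Gjb2 and Gjb6 values was not tested.

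**Figure D3:**
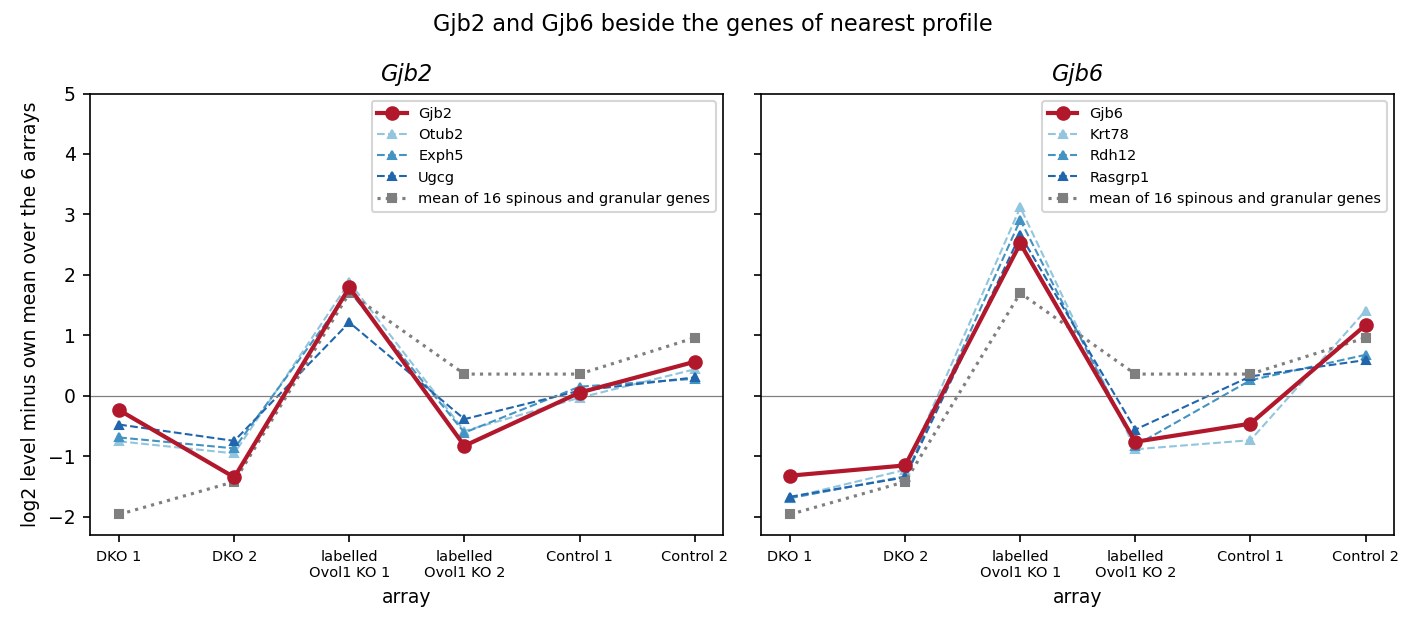
Profiles of Gjb2 (left) and Gjb6 (right) over the 6 arrays as log2 level minus the gene's own mean, with the 3 genes of nearest profile (triangles) and the mean of 16 spinous and granular genes (grey squares); lines only join the points of a gene. All curves peak in replicate 1 labelled Ovol1 KO, where the spinous and granular mean is 11.01, and have their lowest value in an Ovol1/2 DKO array, where that mean is 7.35 or 7.89. The genes of nearest profile were chosen over these same arrays, which largely fixes their peak and lowest value.

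Other connexin genes were read from 12 probe sets, 1 for each gene. None of the 12 passed in any comparison with all arrays in the fit, 5 were near background on all arrays (Gja5, Gja10, Gjc3, Gjd2 and Gjd4) and 6 were above it on all arrays (Gja3, Gja4, Gja6, Gjb1, Gjc1 and Gjd3), while Gje1 straddled it. Apart from Gjc1, the 12 lay between -0.13 and 0.23 in Ovol1/2 DKO minus Control. Gjc1, the gene of Cx45, read 10.96 and 10.06 in Ovol1/2 DKO, 8.44 and 9.12 in the labelled Ovol1 KO arrays, and 10.14 and 8.62 in Control. Ovol1/2 DKO and Control overlapped (difference 1.13, SE 0.55, 95% interval -0.18 to 2.44, limma adjusted p = 0.611), while both Ovol1/2 DKO arrays lay above both labelled Ovol1 KO arrays (1.73, SE 0.55, 0.42 to 3.03, limma adjusted p = 0.203). Without the arrays that lacked Xist signal Gjc1 passed between Ovol1/2 DKO and Control (1.89, limma adjusted p = 0.0218).

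Pannexins form channels in the membrane of single cells and do not usually build gap junctions. Panx1, the member best known in skin, read 10.24 and 9.59 in Ovol1/2 DKO, 9.42 and 8.69 in the labelled Ovol1 KO arrays, and 9.69 and 8.77 in Control. Panx1 differed by 0.68 in Ovol1/2 DKO minus Control (SE 0.41, 95% interval -0.30 to 1.66, limma adjusted p = 0.776), and the groups overlapped. Panx2 differed by -0.10 (SE 0.21) and Panx3, near background on 4 arrays, by 0.63 (SE 0.25, limma adjusted p = 0.451).

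**Figure D4:**
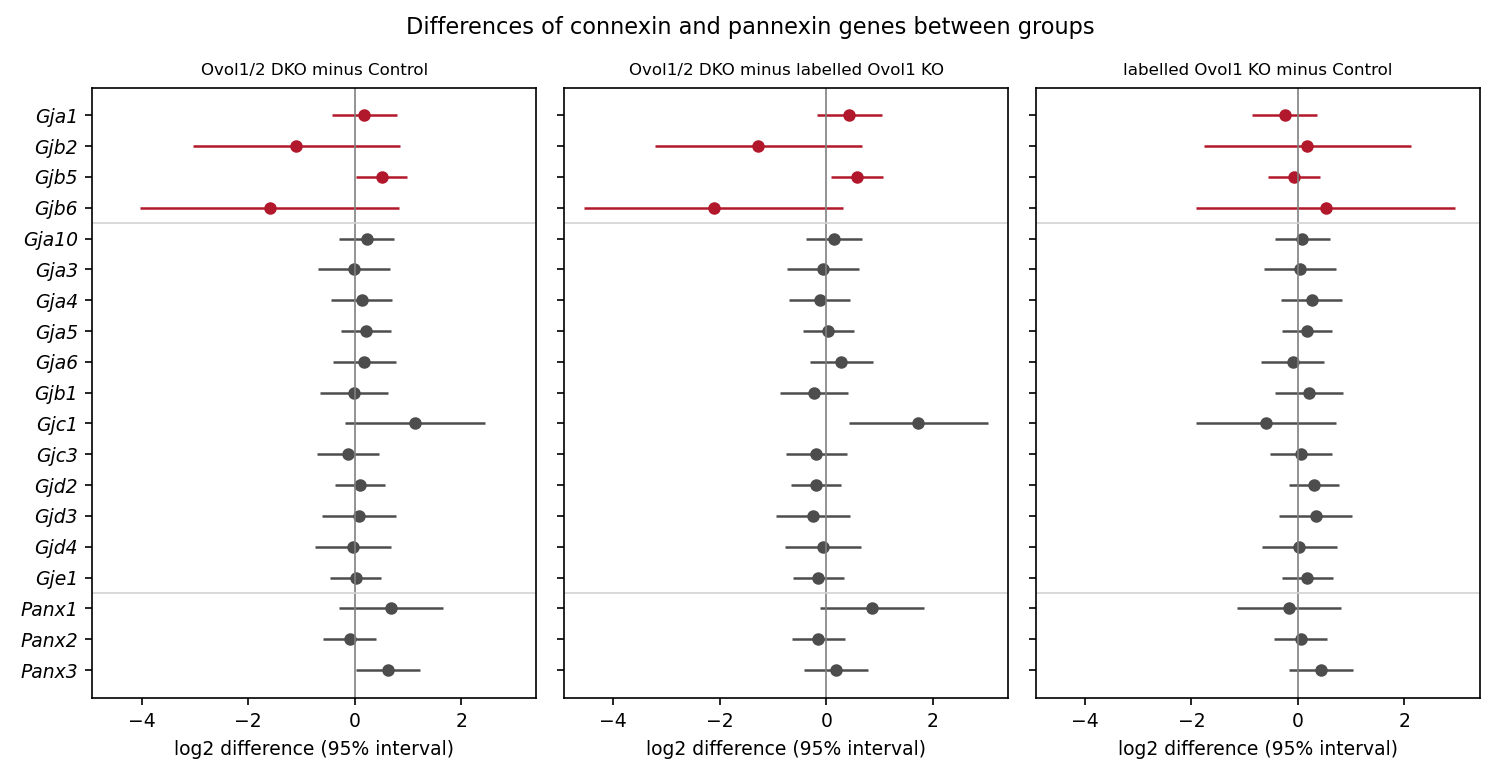
Log2 differences with 95% intervals for the 4 connexins (top, red), 12 other connexins and 3 pannexins in the 3 comparisons. None passed in this fit of all 6 arrays, the intervals of Gjb2 and Gjb6 are the widest, and Gjc1 lies at 1.13 against Control and 1.73 against labelled Ovol1 KO.

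Proteins that bind connexins or steer their transport and turnover were read from a list of 18, of which 17 were measured. None passed between Ovol1/2 DKO and Control with all arrays in the fit (median 0.01). The lowest p values there belonged to Tjp1 (-1.22, SE 0.25, limma adjusted p = 0.0773), the scaffold ZO-1 that binds the tail of Cx43, and to the scaffold Dlg1 (-0.59, SE 0.21, limma adjusted p = 0.349). Tjp1 passed there without Control replicate 1 (-1.52, limma adjusted p = 0.0478). Tjp1 read 10.57 and 10.44 in Ovol1/2 DKO, 11.94 and 11.81 in the labelled Ovol1 KO arrays, and 11.43 and 12.03 in Control, with the Ovol1/2 DKO arrays under all others. Between Ovol1/2 DKO and labelled Ovol1 KO it fell (-1.37, SE 0.25, limma adjusted p = 0.0403), the single call of the 17 (1.91% of all genes fell). That call was lost without any 1 of the arrays of those 2 groups.

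Kinases reported to act on Cx43 were represented by 10 measured genes of 13 listed, and none passed in any comparison (median 0.14 in Ovol1/2 DKO minus Control). Prkcd (-0.52, SE 0.20, limma adjusted p = 0.424) and Prkca (0.41, SE 0.20, limma adjusted p = 0.630), kinases of the protein kinase C family, had the lowest p values. Of 15 measured genes of adherens junctions and desmosomes (of 17 listed), the adhesions that hold cells together beside gap junctions, 3 fell in Ovol1/2 DKO minus Control and 12 did not pass (median -0.37, with 1.40% of all genes falling). These were the desmosomal cadherins Dsc2 (-2.70, SE 0.36) and Dsg3 (-1.25, SE 0.21) and the epithelial cadherin Cdh1 (-1.57, SE 0.24, limma adjusted p = 0.0292). From 0 to 2 fell when 1 array was left out, and without Control replicate 2 or either Ovol1/2 DKO array none of the 3 kept its call. Between Ovol1/2 DKO and labelled Ovol1 KO 4 of the 15 fell, with 1.91% of all genes falling. They were the same 3 and the desmosome gene Pkp3 (-1.29, SE 0.24, limma adjusted p = 0.0418). From 0 to 4 fell there when 1 array was left out.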

How the data were processed

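The authors deposited linear intensity values of 35556 probe sets for each of the 6 arrays. The submitters' processing notes name Affymetrix Expression Console 1.1.1 and PLIER 2.0. How background was corrected, arrays normalized and probe sets filtered is not given in the sources used here. Biotin-labelled DNA was made from randomly primed cRNA, per the labels' protocols. In the platform annotation 21789 probe sets had 1 symbol, 1621 had several and 12146 had none. Entrez identifiers served to bring symbols to RefSeq names (GRCm38.p6, with 91 left as they were), and the probe set of highest mean was kept for each of 19938 genes.

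Values were taken as log2(intensity + 16), which understates the change of dim genes, and fitted in 1 linear model over all 6 arrays (limma 3.58.1, R 4.3.3; moderated with eBayes after lmFit, 3 residual and 3.68 prior degrees of freedom), with Benjamini-Hochberg adjustment over all genes of a comparison. Intervals and standard errors are of that moderated fit (median SE 0.24). With 2 arrays against 2, an exact two-sided test cannot go below p = 0.333. The fit was tested on simulated data. Members, lists and alternatives were chosen with earlier results of these data known. Genes named were the 4 connexins, every measured connexin of the list (Gjc1 singled out after its values were seen, the others by name or range), the pannexins, passing genes of the other lists or the 2 of lowest p, the defining markers, and the 3 genes of nearest profile at or above the median level. Marker lists of other cell types held fibroblast, melanocyte, leukocyte, endothelial, Schwann and Merkel, and skeletal muscle genes. Promoter windows are from RefSeq, and all 4 connexins matched. Some listed genes are not reported here.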

Additional observations from a re-analysis of the deposited data

How the results depend on the processing

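Of 201 repeats of the 12 connexin differences under other settings, 188 kept their direction and their failure to pass, 12 changed sign and 1 passed. Many settings changed only the spread, the genes tested or the group not compared. They left a difference as it was, so those repeats could not change sign. The pass was Gjb6 in Ovol1/2 DKO minus Control, at -2.41 without the arrays that lacked Xist signal, where its adjusted p was 0.00113 (0.300 to 1 in its other settings of that comparison). In the same setting Gjb2 was 0.037 in Ovol1/2 DKO minus labelled Ovol1 KO, and Gja1, Gjb2 and Gjb6 were 0.055, -1.39 and -1.93 in labelled Ovol1 KO minus Control. With 1 array left out, Ovol1/2 DKO minus Control ran from -0.056 to 0.415 for Gja1, -1.66 to -0.54 for Gjb2, 0.36 to 0.65 for Gjb5 and -2.41 to -0.78 for Gjb6. Ovol1/2 DKO minus labelled Ovol1 KO ran from -2.59 to 0.037 for Gjb2, and labelled Ovol1 KO minus Control from -0.46 to -0.04 for Gja1, -1.13 to 1.49 for Gjb2, -0.215 to 0.075 for Gjb5 and -1.12 to 2.16 for Gjb6. Gjb6 lay under the median level and could not be given with dim genes left out.

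Counts of passing genes for Ovol1/2 DKO minus Control ran from 99 to 455 with 1 array left out and were 1395 without the arrays that lacked Xist signal, 155 with an offset of 64 and 91 with all probe sets tested. For Ovol1/2 DKO minus labelled Ovol1 KO they ran from 135 to 831 with 1 array left out and were 1508, 311 and 206 in those settings. For labelled Ovol1 KO minus Control they ran from 0 to 3 and were 20 without the arrays that lacked Xist signal. With replicate number as a block, the counts were 597, 1022 and 0, and none of the 12 connexin differences passed (Gjb5 adjusted p = 0.224 and 0.110 against Control and labelled Ovol1 KO). Among the listed genes the block gained Panx1 (0.85, adjusted p = 0.0477) and Cnfn in Ovol1/2 DKO minus labelled Ovol1 KO, gained Kdr and Sprr1a in Ovol1/2 DKO minus Control, and lost Dmkn there (3 in place of 4 spinous and granular genes); Cnfn, Kdr and Sprr1a are named after their values were seen. Deviations of replicate 1 from the group mean correlated at 0.490 (Ovol1/2 DKO and Control), 0.194 (Ovol1/2 DKO and labelled Ovol1 KO) and 0.261 (labelled Ovol1 KO and Control), and nothing in the labels ties a replicate number to 1 litter or day. The cause of these changes was not tested.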
